A study of Mus musculus with 11 samples.

Results

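Expression of 10 genes that mark injury of the renal tubule was followed in mouse kidneys. The genes were Havcr1, Lcn2, Spp1, Clu, Krt8, Krt18, Krt20, Sox9, Cd44 and Anxa2, taken by symbol from a list of tubular injury genes, and all 10 were found among the 25677 genes counted. RNA had been sequenced from 11 kidneys of female mice at 21 weeks of age, with 1 library for each mouse. The Ctr group held 3 control mice, C57B6 in the labels and C57BL/6J in the study's methods. The Lpr group held 4 MRL/lpr mice without DNase I, and the DNase group held 4 MRL/lpr mice given DNase I, an enzyme that cuts DNA, by intraperitoneal injection every day from week 17. MRL/lpr mice carry the lpr mutation of Fas, a death receptor, and develop a lupus-like nephritis as they age. Lpr and DNase shared this strain and mutation, whereas Ctr differed from both in strain, so that strain and disease cannot be told apart in any comparison with Ctr. Whether the Lpr mice received a vehicle injection was not given in the sources used here.

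The epithelium of the proximal tubule reabsorbs most of what the glomerulus filters, and it is easily damaged by protein leak, inflammation and lack of oxygen. Damaged tubular cells lose their brush border, switch on genes that are almost silent in the healthy nephron, and spread and divide to cover the gaps. Havcr1 encodes KIM-1, a membrane receptor that lets a tubular cell engulf dying neighbours, and Lcn2 encodes the secreted siderophore binder NGAL, and both proteins are measured in urine as signs of tubular damage. Spp1 (osteopontin) and Clu (clusterin) encode other secreted proteins, Krt8, Krt18 and Krt20 encode intermediate filament keratins, Sox9 encodes a transcription factor of regenerating tubules, Cd44 encodes the hyaluronan receptor, and Anxa2 encodes a membrane binding annexin.

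The sequence of Havcr1 that the study's Kim1 primers read in RT-PCR is shown first, since it ties that assay to the gene counted here. In the GENCODE vM21 transcripts both primers were found in the 4 transcripts of Havcr1 and in no other gene. They bound a product of 184 bases, wholly in the coding part of exon 3 of Havcr1-202, which encodes much of the immunoglobulin-like domain, at chr11:46752416-46752599 of mm10 on the plus strand. The capitals mark the forward primer and the site of the reverse primer.
Havcr1 amplicon: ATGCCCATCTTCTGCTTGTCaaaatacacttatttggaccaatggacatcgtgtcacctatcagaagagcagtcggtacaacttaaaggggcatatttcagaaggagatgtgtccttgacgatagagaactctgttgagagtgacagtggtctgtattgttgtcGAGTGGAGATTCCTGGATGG

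The starts of Lcn2 and Spp1 are shown because these secreted factors varied together over the 8 MRL/lpr kidneys, with values given further on. Each window runs from 250 bases before to 50 bases after the start in RefSeq, on GRCm38.p6 (mm10), at chr2:32387690-32387989 on the minus strand for Lcn2 and at chr5:104434861-104435160 on the plus strand for the first of 2 starts of Spp1. Capitals mark a match to the letters of the TATA box (TATAAA).
Lcn2 promoter: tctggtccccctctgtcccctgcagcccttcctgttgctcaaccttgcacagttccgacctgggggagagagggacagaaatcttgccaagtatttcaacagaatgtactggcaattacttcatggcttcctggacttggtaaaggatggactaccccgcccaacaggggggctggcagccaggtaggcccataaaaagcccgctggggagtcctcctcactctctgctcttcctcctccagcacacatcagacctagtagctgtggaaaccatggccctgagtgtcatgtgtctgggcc
Spp1 promoter: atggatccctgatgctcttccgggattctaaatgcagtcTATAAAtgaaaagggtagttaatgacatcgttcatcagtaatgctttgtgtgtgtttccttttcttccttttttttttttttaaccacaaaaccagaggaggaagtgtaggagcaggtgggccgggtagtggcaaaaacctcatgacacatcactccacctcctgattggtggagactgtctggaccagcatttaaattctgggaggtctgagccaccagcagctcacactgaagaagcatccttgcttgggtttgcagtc

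Of the 10 genes, 8 had such a window in the table, and Clu and Sox9 had none. The windows were searched on both strands for the NF-kappaB motif, for a STAT site (TTCNNNGAA), for an AP-1 site (TGANTCA) and for a TATA box, none of which was allowed to differ by a base. The Lcn2 window held none of the 4, and that of Spp1 held the TATAAA letters in capitals, at position -211 from the start. Whether this match acts as a TATA box was not tested. The NF-kappaB motif was found at Krt18, the AP-1 site at Anxa2 and at the third start of Havcr1, and the TATA box also at Krt8, with 2 overlapping matches on opposite strands, Krt20 and Anxa2. No match overlapped one of another motif. Of all 32851 windows of this length, 8.46% held the NF-kappaB motif, 8.3% the STAT site, 7.81% the AP-1 site and 13.6% the TATA box. These matches describe letters and not bound factors.

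Each library held between 33469858 and 38460873 counts. The third Lpr kidney (Lpr 3) stood apart from the others, because its counts leaned towards short genes. The slope of log2 counts on log2 gene length, against the mean of all kidneys, was -0.44 in Lpr 3 and between -0.04 and 0.09 in the other 10 kidneys. At the lengths of the injury genes this trend would add 0.91 on the log2 scale to Lcn2 (853 bases) and 0.12 to Havcr1 (2519 bases) in Lpr 3, and take 0.49 from Cd44 (5746 bases). Values without Lpr 3 are therefore given beside the main results in which Lpr enters. Tubular origin was clear in each library, with Kap as the highest of 20 proximal tubule markers by mean level. Of the markers of infiltrating cells that were tested, 11 of 11 for macrophages, 9 of 9 for T cells, 5 of 5 for all leukocytes, 4 of 7 for B cells and 3 of 6 for neutrophils were called higher in Lpr than in Ctr, where 7.27% of all genes were. In bulk tissue fewer cells of a type and less RNA per cell cannot be told apart.

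In Lpr kidneys Havcr1, Lcn2 and Cd44 rose against Ctr, by 152-fold, 15.1-fold and 9.32-fold. On the log2 scale these were 7.25, 3.92 and 3.22, and without Lpr 3 they were 6.58, 3.10 and 3.13. The same 3 genes were called higher in DNase kidneys, by 58.5-fold, 2.89-fold and 7.06-fold, where Clu fell as well. In both comparisons with Ctr the Lcn2 call was lost without some single kidneys, as given further on. No injury gene passed the test between DNase and Lpr, although all 10 had lower fitted values in DNase. Of all genes tested, 7455 of 15832 had a positive log2 fold change in that comparison, and 7714 of 16006 without Lpr 3. The value of Sox9 turned positive without Lpr 2 (0.08). A gene was called at an adjusted p under 0.05 in edgeR's quasi-likelihood test, adjusted by Benjamini-Hochberg over all genes tested. Fold changes and their SE are on the log2 scale, and CPM are counts scaled to the size of each library after TMM normalization.

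For Lpr against Ctr, 3 of 10 injury genes were called higher and 0 lower, where 7.27% of 16074 genes were called higher and 2.92% lower. With an absolute log2 fold change above 2 required as well, the 3 genes stayed called, against 4.65% of all genes that were higher. Without Lpr 3 the count was again 3 higher and 0 lower, against 11.0% of 15855 genes called higher and 6.79% lower. The median log2 fold change over the 10 genes was 1.89, and 1.66 without Lpr 3, where that over all genes was 0.03 and 0.00052.

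For DNase against Ctr, 3 of 10 were called higher and 1 lower, with 13.1% of 16100 genes called higher and 8.61% lower. With the fold limit 2 genes remained, Havcr1 and Cd44, against 4.56% of all genes that were higher. For DNase against Lpr 0 of 10 were called, and by this test 0% of 15832 genes were called higher and 0% lower, also without Lpr 3 (0% of 16006 higher and 0% lower). Before adjustment, 343 genes of the whole table were higher and 543 lower in DNase than in Lpr at p under 0.05, and 6 of the 10 injury genes were among the latter. Without Lpr 3 these numbers were 661 and 957, with 3 of the 10 injury genes among the latter. DESeq2 called none of the injury genes for which it gave a p in this comparison. The median log2 fold change of the 10 genes was -1.05 and that of all genes -0.02, and without Lpr 3 the values were -0.51 and -0.01. These comparisons share libraries, and their values are therefore given side by side and not as separate evidence.

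**Figure D1:**
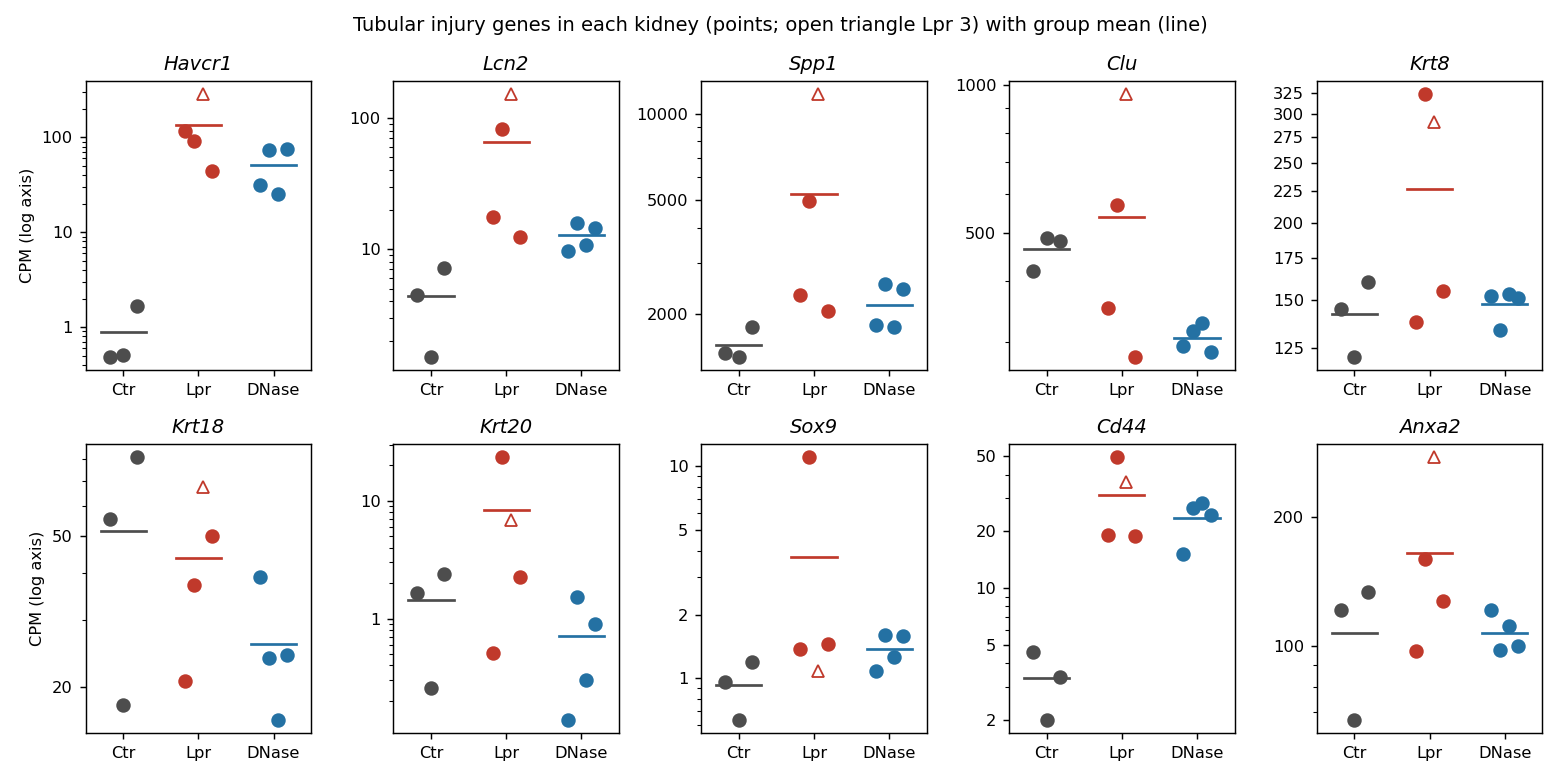
CPM of the 10 tubular injury genes in each kidney on log axes, with a point for each kidney, an open triangle for Lpr 3 and a line at the group mean, for Ctr (n = 3), Lpr (n = 4) and DNase (n = 4). Havcr1, Lcn2, Spp1 and Cd44 lie higher in each MRL/lpr kidney than in each Ctr kidney, whereas Lpr and DNase overlap for all 10 genes. The share of all genes that separate or overlap in this way was not counted.

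**Figure D2:**
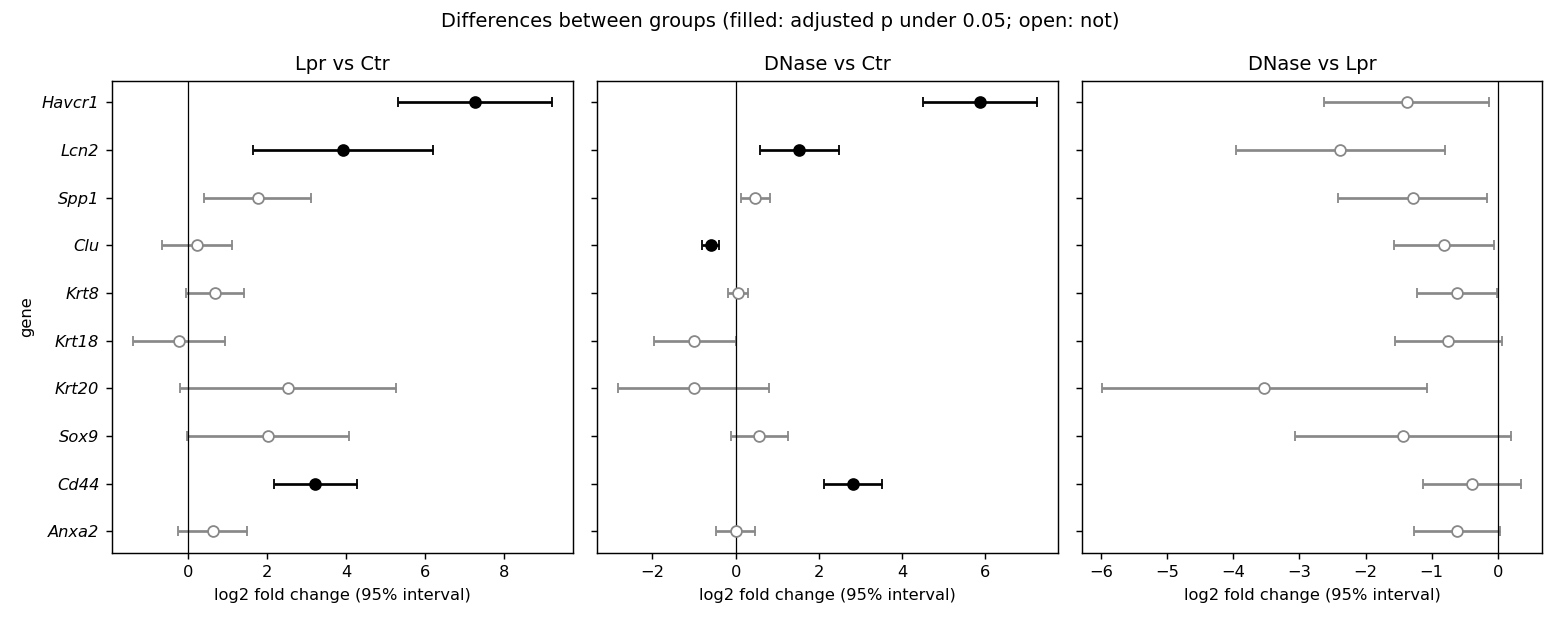
Log2 fold changes of the 10 genes with 95% intervals from edgeR in the 3 comparisons, where filled points passed an adjusted p of 0.05 and open points did not. Havcr1, Lcn2 and Cd44 are filled and above 0 in both comparisons with Ctr, Clu is filled and below 0 for DNase against Ctr, and no point is filled for DNase against Lpr.

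Havcr1, the receptor, was nearly silent in control kidneys, at 0.483, 0.511 and 1.65 CPM in Ctr 1 to 3. It stood at 116, 91.7, 286 and 44.8 CPM in Lpr 1 to 4, and at 31.7, 72.9, 25.3 and 76.2 CPM in DNase 1 to 4. Every MRL/lpr kidney thus lay above every Ctr kidney, whereas the DNase range ran across the lowest Lpr kidney. The means were 0.881 ± 0.665 CPM in Ctr (SD, n = 3), 135 ± 105 in Lpr (n = 4) and 51.5 ± 26.8 in DNase (n = 4), and Lpr without Lpr 3 had 84.2 ± 36.2 (n = 3). Per gene length, the mean FPKM ranked Havcr1 13692nd of 25677 genes in Ctr, 1436th in Lpr and 3013th in DNase. Against Ctr the log2 fold change was 7.25 in Lpr (SE 0.86, adjusted p = 0.0014) and 5.87 in DNase (SE 0.60, adjusted p = 0.000142). Without Lpr 3 the former was 6.58 (adjusted p = 0.000495). Between DNase and Lpr it was -1.38 (95% interval -2.63 to -0.13, adjusted p = 0.854), and -0.71 without Lpr 3 (adjusted p = 0.598).

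Lcn2, the siderophore binder, was low but present in Ctr, at 4.48, 1.5 and 7.14 CPM. It reached 17.5, 82.9, 152 and 12.3 CPM in Lpr 1 to 4, and 9.68, 15.8, 10.7 and 14.6 CPM in DNase 1 to 4. Lpr 2 and Lpr 3 were far above the other MRL/lpr kidneys, and Lpr 1 and Lpr 4 lay within or close to the DNase range. Once the length trend was taken out Lpr 3 fell to 81.0 CPM, under Lpr 2 at 92.0 CPM. The log2 fold change in Lpr against Ctr was 3.92 (SE 1.00, adjusted p = 0.0408), and 3.10 without Lpr 3 (adjusted p = 0.0425). This call was lost without any one of the Ctr kidneys (adjusted p = 0.152, 0.137 and 0.0917 without Ctr 1, 2 and 3) and without Lpr 2 (adjusted p = 0.0892). In DNase against Ctr it was 1.53 (SE 0.42, adjusted p = 0.0302), a call lost without Ctr 1, DNase 2 or DNase 4 (adjusted p = 0.0907, 0.0759 and 0.0733) and in a fit over all 3 groups (adjusted p = 0.299). Between DNase and Lpr it was -2.38 (95% interval -3.96 to -0.79, adjusted p = 0.82), and -1.57 without Lpr 3 (adjusted p = 0.43). Lcn2 is also known as a product of neutrophils, and the summed FPKM of 9 neutrophil markers was 3.10 to 8.91 in Ctr, 17.7 to 55.2 in Lpr and 15 to 35.9 in DNase. The highest neutrophil sum, 55.2 FPKM, was in Lpr 1 and not in either kidney that was highest for Lcn2, and the part of these cells in the result was not tested.

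Spp1 was already abundant in control kidneys, 39th of all genes by mean FPKM in Ctr, 13th in Lpr and 26th in DNase. Its levels were 1460, 1410 and 1790 CPM in Ctr 1 to 3, 2320, 4950, 11700 and 2050 CPM in Lpr 1 to 4, and 1830, 2530, 1800 and 2430 CPM in DNase 1 to 4. Each MRL/lpr kidney was above each Ctr kidney, by a narrow margin in DNase 1 and DNase 3. The fold change did not pass the test in either comparison, with a log2 value of 1.76 in Lpr (95% interval 0.41 to 3.11, adjusted p = 0.113) and of 0.47 in DNase (0.12 to 0.83, adjusted p = 0.0617). Without Lpr 3 the first was 1.01 (adjusted p = 0.0792). DESeq2 did call Spp1 in both, with adjusted p = 0.0115 and 0.0157. Between DNase and Lpr the log2 fold change was -1.29 (95% interval -2.42 to -0.16, adjusted p = 0.854), and -0.54 without Lpr 3.

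Clu, the secreted chaperone, was the exception among these genes, since its only call was downward. Ctr kidneys held 419, 489 and 483 CPM, and DNase kidneys held 295, 316, 329 and 287 CPM. Every DNase kidney lay under every Ctr kidney, and the replicates were close, with an SD of 19.2 CPM around 307 in DNase and of 38.8 around 464 in Ctr. The log2 fold change was -0.59 (SE 0.09, adjusted p = 0.00129), or 1.51-fold lower, and it was not called in the fit over all 3 groups (adjusted p = 0.343). The Lpr kidneys were scattered over both groups at 352, 571, 960 and 280 CPM, with Lpr 1 and Lpr 4 under every Ctr kidney and Lpr 2 and Lpr 3 above every one. Lpr against Ctr accordingly gave 0.23 (95% interval -0.66 to 1.11, adjusted p = 0.794), which turned to -0.20 without Lpr 3 (adjusted p = 0.614). DNase against Lpr gave -0.81 (95% interval -1.57 to -0.05, adjusted p = 0.854), and -0.39 without Lpr 3.

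The 3 keratins behaved differently from one another. Krt8 and Krt18 encode the type II and type I partners of the filament of simple epithelia, and their genes lie next to each other on chromosome 15, whereas Krt20 is a keratin of the bladder and gut lining that injured tubules can also make. No keratin was called in any comparison, and their kidney by kidney values are given for what they share with other cell markers.

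Krt8 was level in Ctr (145, 121 and 160 CPM), in DNase (152, 134, 153 and 151 CPM) and in Lpr 1 and Lpr 4 (138 and 155 CPM). Lpr 2 with 323 CPM and Lpr 3 with 291 CPM were the only kidneys above 160 CPM. The log2 fold changes were 0.68 in Lpr against Ctr (95% interval -0.06 to 1.42, adjusted p = 0.278), 0.06 in DNase against Ctr (-0.18 to 0.30, adjusted p = 0.748) and -0.61 in DNase against Lpr (-1.22 to -0.01, adjusted p = 0.854). Without Lpr 3 the first was 0.54 and the last -0.48.

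Krt18 did not follow Krt8. It was at 55.5, 17.9 and 80.8 CPM in Ctr 1 to 3, at 20.7, 37.2, 67.3 and 50.1 CPM in Lpr 1 to 4, and at 39, 23.9, 16.4 and 24.3 CPM in DNase 1 to 4. The ratio of Krt18 to Krt8 in FPKM ran from 0.138 in DNase 3 to 0.651 in Ctr 3. It moved with markers of the urothelium, the lining of the renal pelvis, which summed to 116, 10.5 and 190 FPKM in Ctr 1 to 3, to 5.66, 18.1, 109 and 142 FPKM in Lpr 1 to 4, and to 56.6, 39.6, 8.36 and 28.2 FPKM in DNase 1 to 4. The 5 kidneys with the highest urothelial sum (Ctr 3, Lpr 4, Ctr 1, Lpr 3 and DNase 1) were also the 5 highest for Krt18. The match was not particular to the urothelium. In the same order these 5 were at 673, 565, 480, 702 and 696 FPKM for 9 summed collecting duct markers. The other kidneys were at 296 to 427 FPKM. The part of the urothelium or of the collecting duct in the Krt18 values was not tested. DNase against Ctr gave a log2 fold change of -0.99 (95% interval -1.97 to -0.0015, adjusted p = 0.149). This passed only when Ctr 2, the control with least urothelial and collecting duct signal, was left out (-1.39, adjusted p = 0.00992). Lpr against Ctr gave -0.23 (95% interval -1.40 to 0.94, adjusted p = 0.842), and DNase against Lpr -0.75 (-1.56 to 0.06, adjusted p = 0.854), where Lpr without Lpr 3 gave -0.51 and -0.47.

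Krt20 was scarce, with 1.66, 0.255 and 2.40 CPM in Ctr 1 to 3, 0.506, 23.6, 6.80 and 2.25 CPM in Lpr 1 to 4, and 0.138, 1.52, 0.301 and 0.900 CPM in DNase 1 to 4. The DNase values came from 5, 56, 12 and 35 counts and that of Lpr 1 from 18, so the low side of its fold changes rests on few reads. Lpr 2 stood highest, with urothelial markers that summed to 18.1 FPKM, less than in 7 other kidneys, and the part of the urothelium in the Krt20 values was not tested. Of the 10 genes Krt20 had the largest difference between DNase and Lpr, with a log2 fold change of -3.53 (95% interval -5.98 to -1.07, adjusted p = 0.82) and of -2.15 without Lpr 2 (adjusted p = 0.787) or -3.62 without Lpr 3 (adjusted p = 0.376). Against Ctr it was 2.53 in Lpr (95% interval -0.21 to 5.27, adjusted p = 0.276), 1.12 without Lpr 2 and 2.61 without Lpr 3, and -1.01 in DNase (95% interval -2.83 to 0.80, adjusted p = 0.43).

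**Figure D3:**
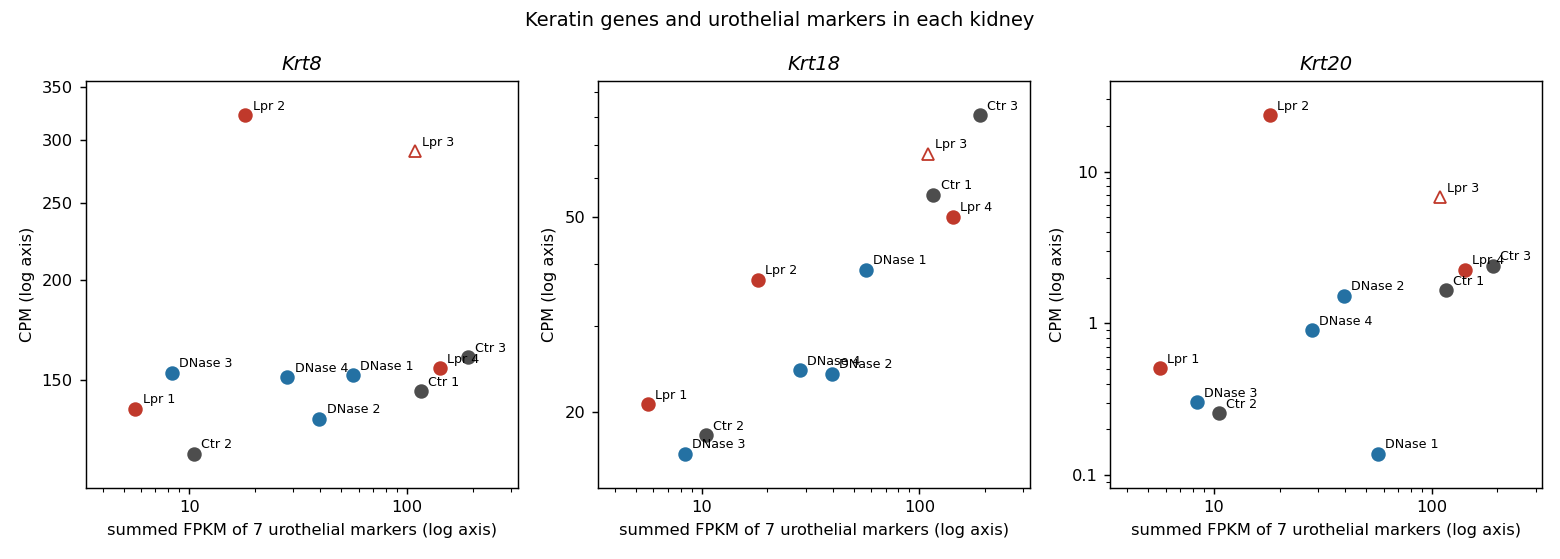
CPM of Krt8, Krt18 and Krt20 in each of the 11 kidneys against the summed FPKM of 7 urothelial markers, both on log axes, coloured by group with an open triangle for Lpr 3. Krt18 climbs with the urothelial sum over Ctr, Lpr and DNase kidneys alike, while Lpr 2 stands high for Krt8 and Krt20 at a urothelial sum of 18.1 FPKM.

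Sox9, the regeneration factor, was close to 1 CPM almost everywhere, at 0.966, 0.638 and 1.20 CPM in Ctr 1 to 3 and 1.08, 1.60, 1.26 and 1.59 CPM in DNase 1 to 4. In Lpr 1 to 4 it was at 1.38, 11.1, 1.08 and 1.45 CPM. A single kidney, Lpr 2, was thus 10.3 times as high as the lowest of its group. The log2 fold change of 2.02 in Lpr against Ctr (95% interval -0.03 to 4.06, adjusted p = 0.241) was 0.47 without Lpr 2 (adjusted p = 0.558). That of -1.44 in DNase against Lpr (95% interval -3.07 to 0.19, adjusted p = 0.854) became 0.08 without it (adjusted p = 0.923). Without Lpr 3 they were 2.31 and -1.75. DNase against Ctr gave 0.56 (95% interval -0.12 to 1.25, adjusted p = 0.236).

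Cd44, the hyaluronan receptor, also separated the strains without overlap. Ctr kidneys held 4.59, 2.01 and 3.39 CPM, Lpr kidneys 19.1, 49.6, 36.6 and 18.8 CPM, and DNase kidneys 15.2, 26.6, 28.3 and 24.5 CPM. The lowest MRL/lpr kidney, DNase 1, was still above the highest Ctr kidney. The log2 fold change against Ctr was 3.22 in Lpr (SE 0.46, adjusted p = 0.00326), 3.13 without Lpr 3 (adjusted p = 0.00432), and 2.82 in DNase (SE 0.31, adjusted p = 0.000191). Between DNase and Lpr it was -0.39 (95% interval -1.13 to 0.36, adjusted p = 0.854), -0.07 without Lpr 2 and -0.31 without Lpr 3. Leukocytes carry Cd44 too, and macrophages are known to make Spp1. The 5 pan-leukocyte markers summed to 30.3 to 45.0 FPKM in Ctr, 162 to 301 in Lpr and 140 to 291 in DNase, and the 11 macrophage markers to 113 to 169, 990 to 2000 and 751 to 1500 FPKM. Lpr 2 was highest for Cd44 and for both sums, DNase 1 was lowest of the MRL/lpr kidneys for all 3, and the part of these cells in the Cd44 and Spp1 values was not tested.

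Anxa2 was broadly expressed, at 121, 67.1 and 134 CPM in Ctr 1 to 3, 97.0, 160, 277 and 127 CPM in Lpr 1 to 4, and 121, 97.9, 111 and 99.8 CPM in DNase 1 to 4. Lpr 3 was the highest kidney and Ctr 2 the lowest, and the groups overlapped. The log2 fold changes were 0.62 in Lpr against Ctr (95% interval -0.25 to 1.49, adjusted p = 0.415), 0.26 without Lpr 3, and -0.61 in DNase against Lpr (-1.26 to 0.03, adjusted p = 0.854), where the value without Lpr 3 was -0.25. DNase and Ctr had the same mean of 107 CPM, and their difference had an interval from -0.46 to 0.46.

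High values of most of these genes gathered in a pair of kidneys. Lpr 3 was the highest of the 11 kidneys for Havcr1, Lcn2, Spp1, Clu and Anxa2, and Lpr 2 for Krt8, Krt20, Sox9 and Cd44. Krt18 was highest in Ctr 3. The share of all genes that were highest in Lpr 2 or Lpr 3 was not counted. With the length trend taken out, Lcn2 was highest in Lpr 2 and Cd44 in Lpr 3. Within Lpr the highest kidney exceeded the lowest by 46.6 times for Krt20, 12.4 times for Lcn2 and 10.3 times for Sox9, and by 2.35 times for Krt8. Within DNase this span was 1.63 times for Lcn2, 1.49 times for Sox9 and 1.15 times for Krt8 and for Clu. It was 11.0 times for Krt20, where DNase 1 held 5 counts.

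Over the 8 MRL/lpr kidneys the log2 CPM of Havcr1 was compared with that of each of the other 9 genes by an exact permutation test, two-sided and adjusted over the 9 pairs. Havcr1 was correlated with Lcn2 (Pearson r = 0.82, adjusted p = 0.0208, Spearman rho = 0.93, adjusted p = 0.0201) and with Spp1 (r = 0.86, adjusted p = 0.0208, rho = 0.83, adjusted p = 0.0692), by exact permutation. The other 7 pairs did not pass, from r = 0.78 for Clu (exact adjusted p = 0.0635) to r = 0.12 for Sox9 (exact adjusted p = 0.723). When the group means of Lpr and DNase were taken out, r was 0.72 for Lcn2 and 0.79 for Spp1 (exact permutation p = 0.0443 and 0.0174 before adjustment), and no pair passed the adjustment. Without the kidneys farthest from the median of Havcr1, Lpr 3 and DNase 3, r was 0.57 for Lcn2 and 0.58 for Spp1 (exact permutation p = 0.237 and 0.226). Leaving out both narrows the range of Havcr1, so the lower r cannot show whether the relations rest on them. Without Lpr 3 alone, r was 0.6 for Lcn2 and 0.65 for Spp1 (exact permutation p = 0.125 and 0.0815 before adjustment). The length trend of Lpr 3 would add 0.91 to Lcn2, 0.47 to Spp1 and 0.12 to Havcr1 on the log2 scale, and its part in the relations was not tested. No pair passed the adjustment when DNase 1, Lpr 3 or Lpr 4 alone was left out. Each group alone has 4 kidneys, too few for a correlation of its own.

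**Figure D4:**
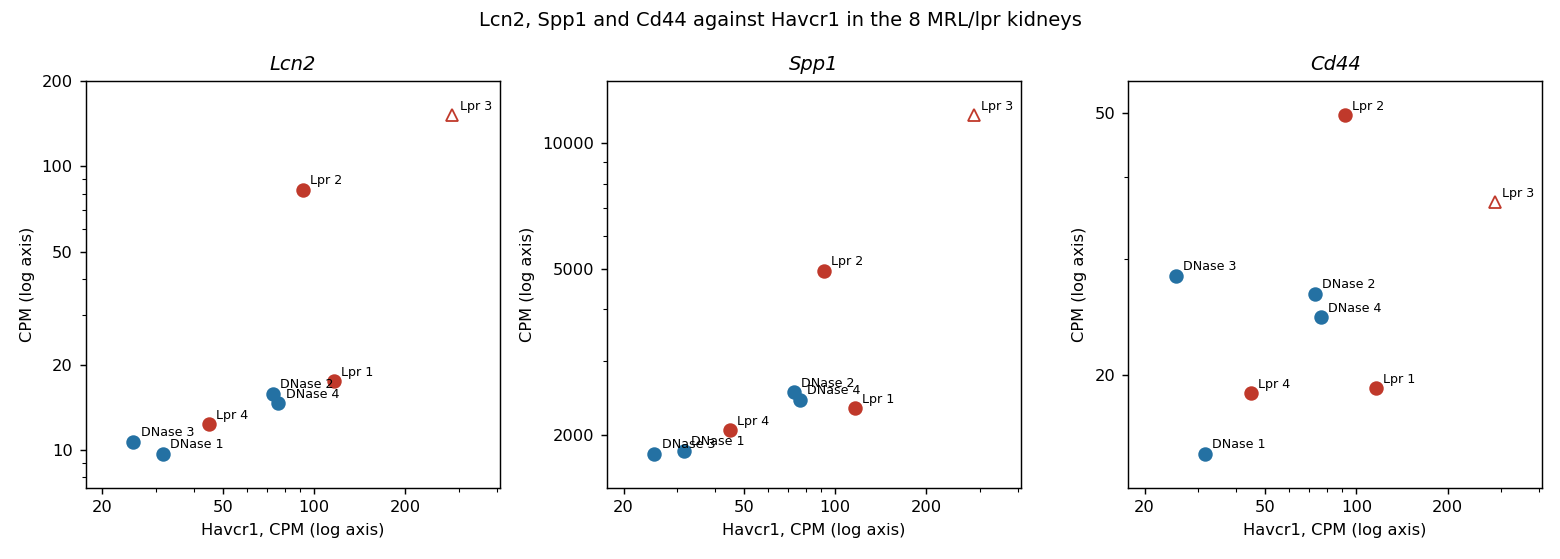
CPM of Lcn2, Spp1 and Cd44 against that of Havcr1 in the 8 MRL/lpr kidneys on log axes, red for Lpr and blue for DNase, with an open triangle for Lpr 3. Lpr 3 is at the top right for Lcn2 and Spp1. The DNase kidneys gather at the lower left together with Lpr 4. For both genes Lpr 4 lies below and to the left of DNase 2 and DNase 4, so the points do not separate by treatment. Cd44, at 28.3 CPM in DNase 3, shows no such order.

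The genes whose log2 CPM was most like that of Havcr1 over the 8 kidneys, of 13974 with a mean of at least 1 CPM, were Nmnat3 (r = 0.985), Alg8 (0.983), Mfsd11 (0.959), Alkbh2 (0.956) and Tmem176a (0.955). Without Lpr 3 these values were 0.966, 0.965, 0.925, 0.916 and 0.903. Their range was small beside that of Havcr1, with Nmnat3 between 9.41 and 17.7 CPM. For Lcn2 they were Tnfrsf12a (r = 0.99), Pea15a (0.988), Alkbh1 (0.984), Efemp2 (0.983) and Tpm4 (0.981), all at 0.963 or more without Lpr 3. Tnfrsf12a, the receptor for the cytokine TWEAK, was between 13.2 and 88.0 CPM. Among the injury genes Spp1 ranked 7th (r = 0.975) and Clu 18th (r = 0.967) for likeness to Lcn2. For Havcr1 the closest, Spp1, ranked 126th (r = 0.857, and 0.654 without Lpr 3). Without Lpr 3 the likeness to Lcn2 was 0.984 for Spp1, 0.944 for Clu and 0.981 for Sox9, and that of Sox9 with all 8 kidneys was 0.438. For Sox9 the value without Lpr 3 rests on Lpr 2, at 11.1 CPM beside 1.08 to 1.60 CPM in the other 6 kidneys and then also the highest for Lcn2. These are descriptions over libraries that share strain and, for 4 of them, treatment.

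A wider list of 45 other injury and repair genes was read in the same way. For Lpr against Ctr 43 were tested, of which 7 were called higher and 2 lower, with a median log2 fold change of 1.11. Over all genes 7.27% were called higher and 2.92% lower, and the median was 0.03. Without Lpr 3 it was 10 higher and 3 lower of 42 and a median of 0.65, where 11.0% and 6.79% of all genes were called. The chemokine Ccl2, which draws in monocytes, was at 0.659 to 1.20 FPKM in Ctr and 5.16 to 39.9 in Lpr (log2 fold change 4.12, SE 0.78, adjusted p = 0.0113). The adhesion molecules Vcam1 (3.62, SE 0.53, adjusted p = 0.00351) and Icam1 (1.42, SE 0.31, adjusted p = 0.0211) rose too. So did the stress cytokine Gdf15 (2.53, SE 0.61, adjusted p = 0.0322) and complement C3 (1.67, SE 0.38, adjusted p = 0.0266). The genes that fell were Fgb and Fgg, which encode fibrinogen chains and are known to be induced in the injured tubule. Fgb was at 2.01 to 2.39 FPKM in Ctr and at no more than 0.309 in Lpr (adjusted p = 0.0141), and Fgg at 3.80 to 4.96 and 0.343 to 2.23 FPKM (adjusted p = 0.0492). Of these calls, those of Ccl2, Gdf15, C3, Icam1, Fgb and Fgg were each lost without at least 1 Ctr kidney, with adjusted p of 0.0593, 0.136, 0.117, 0.102, 0.0557 and 0.148 at the highest, and that of Vcam1 was kept. Without Lpr 2 those of Gdf15, C3 and Fgg were lost too (adjusted p = 0.0727, 0.0527 and 0.127), that of Icam1 was lost without Lpr 1 (0.0539), and that of Fgg without Lpr 1 or Lpr 4 as well (0.0739 and 0.108). All 7 stayed called without Lpr 3, with log2 fold changes of 3.19 for Ccl2, 3.59 for Vcam1, 1.56 for Icam1, 2.32 for Gdf15, 1.80 for C3, -4.80 for Fgb and -2.91 for Fgg.

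For DNase against Ctr 14 of 43 genes of the wider list were called higher and 4 lower, where 13.1% of all genes were called higher and 8.61% lower. Ccl2 (log2 fold change 2.80, SE 0.30, adjusted p = 0.000177), Vcam1 (2.44, SE 0.16, adjusted p = 1.22e-05) and C3 (1.35, SE 0.30, adjusted p = 0.012) rose again. The metalloproteinase gene Mmp7 (2.64, adjusted p = 0.0298) and the stress factor Atf3 (1.40, adjusted p = 0.0039) were called as well, both lost in a fit over all 3 groups (adjusted p = 0.186 and 0.573), and Mmp7 also without Ctr 2, Ctr 3 or DNase 2 (0.0551, 0.0937 and 0.0717). Fgb (adjusted p = 0.000183), Fgg (-2.60, adjusted p = 3.21e-05) and Fga (-0.95, adjusted p = 0.0034) fell, as did S100a11 (-0.80, adjusted p = 0.0047, and 0.15 in the fit over all 3 groups). For DNase against Lpr 0 of 42 were called. Of all genes 7455 of 15832 had a positive log2 fold change, and 7714 of 16006 without Lpr 3. Of the wider list 3 were positive, with a median of -0.80, and without Lpr 3 it was 4, with a median of -0.46. The lowest p among those with lower values belonged to Tnfrsf12a (-1.61), Hmox1 (-1.15), which encodes a heme-degrading enzyme, and the chemokine Cxcl1 (-2.95), each at adjusted p = 0.82, with -1.21, -0.71 and -3.05 without Lpr 3. Cxcl1 was at 14.7 FPKM in Lpr 2, at 0.438, 3.72 and 1.23 in Lpr 1, 3 and 4, and at 0.246 to 0.926 in DNase. Tnfrsf12a was at 80.2 and 84.1 FPKM in Lpr 2 and Lpr 3, at 21.5 and 19.5 in Lpr 1 and Lpr 4, and at 14.3 to 20.8 in DNase. Nqo1 (0.82), Itgb8 (0.42) and Itgb6 (0.27) were the 3 with higher values (adjusted p = 0.82, 0.854 and 0.854), and had 0.76, 0.27 and 0.52 without Lpr 3. Lpr 2 was high for the immediate early genes Atf3 (93.9 FPKM, the other 10 kidneys 0.865 to 8.17) and Fos (86.1 FPKM, the others 0.737 to 15.4), in the kidney that was also high for Sox9 and Krt20.

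The receptors, ligands and relatives of the injury genes numbered 27, of which 23 were tested. For Lpr against Ctr 2 of 23 were called higher, a share near the 7.27% of all genes, and 4 of 23 without Lpr 3, where 11.0% of all genes were. The 2 were Havcr2 (log2 fold change 3.76, SE 0.73, adjusted p = 0.0123) and Itga4 (2.68, SE 0.53, adjusted p = 0.0136). Havcr2 encodes TIM-3, a relative of KIM-1 on T cells and macrophages, and Itga4 an integrin chain of leukocytes that binds osteopontin. Both calls were lost without Ctr 1 (adjusted p = 0.066 and 0.0561) or Ctr 3 (0.0619 and 0.0658), and that of Itga4 without Ctr 2 (0.0666). Both were called without Lpr 3, at 3.91 and 2.96. For DNase against Ctr 5 of 23 were called higher and 1 lower, beside 13.1% and 8.61% of all genes, again with Havcr2 (3.2, adjusted p = 0.000419) and Itga4 (2.76, adjusted p = 4.21e-05). The others were Anxa1 (0.69, adjusted p = 0.0451), Itga9 (0.61, adjusted p = 0.0074), S100a10 (0.44, adjusted p = 0.0232), which encodes the partner of annexin A2, and Itgb5 (-0.26, adjusted p = 0.0445). None of these last 4 was called in a fit over all 3 groups (adjusted p = 0.265, 0.19, 0.596 and 0.267). Leaving out 1 kidney ended the call of Anxa1 (without DNase 2, 3 or 4, up to 0.0982), of S100a10 (without Ctr 1, Ctr 3 or DNase 4, up to 0.102) and of Itgb5 (without any Ctr kidney or DNase 2, 3 or 4, up to 0.154). For DNase against Lpr 0 of 23 were called. The Lcn2 receptor genes Slc22a17 and Lrp2 did not pass in any comparison, with log2 fold changes in Lpr against Ctr of -0.11 and -0.37 (adjusted p = 0.788 and 0.51), and of -0.04 and -0.18 without Lpr 3.

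On the genome the 10 genes lie on 6 chromosomes of mm10, as annotated in GENCODE vM21. Havcr1 (chr11:46735080-46779578), Krt20 (chr11:99428403-99438150) and Sox9 (chr11:112782224-112787760) share chromosome 11, Lcn2 (chr2:32384633-32388252) and Cd44 (chr2:102811141-102901665) share chromosome 2, and Krt8 (chr15:101996698-102004482) and Krt18 (chr15:102028180-102032027) share chromosome 15. Spp1 is at chr5:104435118-104441050, Clu at chr14:65968483-65981547 and Anxa2 at chr9:69453620-69491795. Krt8 shares 101 exonic bases with Gm36026 on the opposite strand, which was counted too, Spp1 shares 309 with Gm42793 on its own strand, and Anxa2 shares 98 with Gm16144 on the opposite strand. The strand setting of the counting was not given in the sources used here, so that reads from these overlaps cannot be told apart. Reads shared with near-identical copies of the keratin genes elsewhere were not examined.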

How the data were processed

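RNA of 11 mouse kidneys was measured with VAHTS Universal V6 libraries, 1 for each mouse. The authors deposited raw gene counts, without normalization, for which the labels' processing notes name fastp, HTSeq, DESeq2, R 3.2.0 and mm10. The FPKM that the authors deposited are these counts divided by library total and gene length. The study's methods name HTSeq, a read counter, for alignment as well, and the annotation and the strand setting were not given in the sources used here.

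The genes and lists were chosen with earlier results of these data known. Groups came from the labels and were compared in pairs, with the libraries of 2 groups in each fit, by the quasi-likelihood test of edgeR 4.0.16 in R 4.3.3, after filterByExpr and TMM scaling, with Benjamini-Hochberg adjustment over all genes. The 95% intervals and the SE come from that fit. All 10 injury genes passed the filter in each comparison. DESeq2 1.42.0, the tool of the study's methods, and limma 3.58.1 on log2(FPKM + 1) served as alternatives. Log2 CPM used a prior count of 2. The length trend was fitted over 13517 genes with a mean count of at least 50. Correlations were tested with python 3.11.15 over all orders of the kidneys. The scripts were tested on simulated data.

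All 10 injury genes were named. Of the wider injury list, up to 5 called genes in each direction with the largest fold change were named, or, where none was called, the 3 with the smallest p. Of the receptors, ligands and relatives those called were named, and for Havcr1 and Lcn2 the 5 genes most like them over the MRL/lpr kidneys. Atf3, Fos and the genes with no call among the receptors were named after their values were seen. Promoters came from RefSeq (GRCm38.p6).

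Libraries held 33469858 to 38460873 counts. No library was a copy of another in its group, since counts of mice in a group differed by 17.5 to 393 times the chi-square of sampling alone. Pairs from different groups were not compared in this way. Nothing in the labels names a litter or a batch. All columns were used. Alternatives were other size factors, DESeq2, no filter, all 3 groups in 1 fit, a replicate block, a length offset, FPKM with pseudocounts of 1 and 0.1, a fold limit, and leaving out each kidney.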

Additional observations from a re-analysis of the deposited data

Results flagged for a closer look

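The lowest or highest kidney was compared with the rest of its group in the 20 groups of 4 kidneys (10 genes in Lpr and in DNase), of which chance marks about 1 in 20, and 2 stood out. Sox9 was at 11.1 CPM in Lpr 2, where the other Lpr kidneys held 1.08 to 1.45 CPM. Krt8 was at 134 CPM in DNase 2, where the other DNase kidneys held 151 to 153 CPM, a gap that is wide only beside their closeness. The part of Lpr 2 in the Sox9 fold changes is given in the report, and the cause was not tested.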

How the results depend on the processing

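For the injury genes 450 of 486 alternative values kept their direction and their side of the threshold. Havcr1 and Cd44 were called in all 16 alternatives for each comparison with Ctr. Lcn2 was called in 9 of 16 for Lpr (adjusted p 0.00161 to 0.152) and in 11 of 16 for DNase (0.0099 to 0.299), Spp1 in 3 of 16 (0.0115 to 0.319) and 7 of 16 (0.0157 to 0.725), and Clu in 15 of 16 for DNase. No injury gene was called between DNase and Lpr in any alternative, with adjusted p of 0.248 or more. The log2 fold change turned for uncalled genes alone, with the cause not tested. In Lpr against Ctr this was Clu without Lpr 3 (-0.205, and up to 0.443 without the other kidneys) and Krt18 without Ctr 3 (0.257) or Lpr 1 (0.00614, and down to -0.64 without others), and in DNase against Lpr Sox9 without Lpr 2 (0.0815, and down to -1.75 without others). In DNase against Ctr it was Krt8 without Ctr 2 (-0.048, and up to 0.147 without others) and Anxa2, near 0, with RLE size factors (-0.0123), DESeq2 (-0.00962), all 3 groups (-0.00134), the length offset (-0.0113), and without Ctr 2 (-0.249), DNase 1 (-0.0605) or DNase 3 (-0.0157, and up to 0.184 without others). The count of calls for DNase against Ctr, 4, was 2 with all 3 groups in 1 fit and 2 with the fold limit, and 3 to 5 when 1 kidney was left out. For Lpr against Ctr it was 2 to 3 and for DNase against Lpr 0 without 1 kidney. The 2 relations with Havcr1 were 1 by Spearman's rho, 0 when centred within groups, and 0 to 3 when 1 kidney was left out (0 without DNase 1, Lpr 3 or Lpr 4). The replicate numbers were not taken as pairs. Deviations of equal numbers correlated at -0.277 to 0.159. Unequal numbers were not compared, so these values cannot decide whether samples were paired. With the replicate block 4 genes were called for Lpr against Ctr, 0 for DNase against Lpr and 3 for DNase against Ctr. DESeq2 gave no p for Sox9 in Lpr against Ctr and in DNase against Lpr, and the FPKM filter left Sox9 out of DNase against Ctr. Depth limits Sox9, Krt20 and Havcr1 in Ctr, where a kidney held 8 to 80 counts of each. It limits Krt20 in DNase too, with 5, 56, 12 and 35 counts in DNase 1 to 4.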
